A study of Mus musculus with 4 samples.

Results

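Imprinted noncoding RNAs are made from loci in which the maternal and the paternal copy of a gene differ in activity. The RNAs described here were chosen by name, as noncoding RNAs of imprinted loci that are known to stay in the nucleus (Kcnq1ot1, Meg3, Rian, Mirg and Airn) or to reach the cytoplasm (H19). Of these 6 RNAs, 5 had a row among the 15746 genes of the deposited table, 4 nuclear and 1 cytoplasmic, and all 5 passed the filter on low values. Mirg is not analysed here.

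The study searched for RNAs in cardiac mitochondria and compared 2 libraries of isolated mitochondria with 2 libraries of the remaining tissue, termed the rest fraction, from hearts of adult wild-type (WT) mice. The labels give tissue (heart), genotype (WT) and treatment (isolated mitochondria, or tissue minus mitochondria), and the groups differ only in the last. Age beyond adult, strain, sex and the number of animals behind each library are not given. Perfused hearts were exposed to trypsin and homogenized, and the pellet of a slow spin, in which nuclei and debris collect, was the rest fraction. Mitochondria were pelleted from the supernatant and treated with digitonin and RNase A before RNA isolation, and their libraries were fragmented for an adjusted time, so that these steps and the fraction cannot be told apart. Values are normalized counts, that is read numbers per gene that the authors scaled by a size factor and rounded. In bulk fractions, less of an RNA and more of other RNA cannot be told apart, nor can fewer nuclei carried over and fewer copies of an RNA in each. Since separate animals are not stated for the replicates, p-values measure only the spread between these libraries, which may be technical.

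Genes of the mitochondrial chromosome made up 93.5% to 97.6% of a mitochondrial library and 63.2% to 67.5% of a rest library, as shares of normalized counts. All 6 cardiomyocyte markers (Myh6, Tnnt2, Actc1, Ryr2, Pln and Myl2) were present, with summed levels of 196297 to 264885 normalized counts per library. A single read was worth 3.87 and 2.55 normalized counts in mitochondrial replicates 1 and 2, against 0.264 and 0.365 in rest replicates 1 and 2. A gene with 3 reads would thus be listed at 11.6 and 7.65 normalized counts in mitochondria and at 0.793 and 1.10 in the rest fraction. The same normalized count therefore rests on fewer reads in a mitochondrial library, and 3 of the 5 RNAs lay below 3 reads in mitochondrial replicate 1. Intervals given below are exact at 95%, Poisson for the reads of a library and Clopper-Pearson for ratios of reads, and cover counting error only, since PCR copies of a molecule were counted as reads.

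Genomic imprinting marks a control region by DNA methylation in the germ line of a single parent. Kcnq1ot1 and Airn are long, largely unspliced RNAs transcribed from the paternal chromosome, through the genes Kcnq1 and Igf2r on the opposite strand, and silence neighbouring genes in cis. Meg3, Rian and Mirg are maternal RNAs of the Dlk1-Dio3 region, where they are thought to be parts of a single long transcription unit that hosts small nucleolar RNAs and microRNAs. H19 is a short, spliced and polyadenylated maternal RNA that shares enhancers with Igf2 and is the precursor of miR-675. These counts do not separate the parental alleles.

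Kcnq1ot1 and Airn start at promoters that lie inside another gene, and Meg3 starts the Dlk1-Dio3 noncoding unit. Their sequences are shown because the start sites fix the strand of each RNA and, for Kcnq1ot1 and Airn, its place inside the opposite gene. Each window holds 300 bases of GRCm38.p6 from RefSeq, from 250 bases before to 50 bases after the start, 5′ to 3′ on the strand of the RNA. Capitals mark the motif CCAAT, searched on both strands (as CCAAT or ATTGG). The windows are chr7:143296498-143296797 on the minus strand for Kcnq1ot1, chr17:12741061-12741360 on the plus strand for Airn and chr12:109540746-109541045 on the plus strand for Meg3.
Kcnq1ot1: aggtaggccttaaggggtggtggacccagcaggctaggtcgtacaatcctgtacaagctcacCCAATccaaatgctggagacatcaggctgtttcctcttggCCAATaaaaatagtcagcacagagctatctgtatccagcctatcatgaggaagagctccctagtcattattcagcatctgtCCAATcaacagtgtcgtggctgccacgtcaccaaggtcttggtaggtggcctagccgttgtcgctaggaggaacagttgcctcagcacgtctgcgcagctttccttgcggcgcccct
Airn: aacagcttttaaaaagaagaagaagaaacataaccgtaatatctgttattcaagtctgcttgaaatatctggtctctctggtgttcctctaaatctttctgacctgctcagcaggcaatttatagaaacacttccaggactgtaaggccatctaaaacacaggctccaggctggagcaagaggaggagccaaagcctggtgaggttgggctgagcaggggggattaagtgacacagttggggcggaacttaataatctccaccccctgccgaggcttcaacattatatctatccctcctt
Meg3: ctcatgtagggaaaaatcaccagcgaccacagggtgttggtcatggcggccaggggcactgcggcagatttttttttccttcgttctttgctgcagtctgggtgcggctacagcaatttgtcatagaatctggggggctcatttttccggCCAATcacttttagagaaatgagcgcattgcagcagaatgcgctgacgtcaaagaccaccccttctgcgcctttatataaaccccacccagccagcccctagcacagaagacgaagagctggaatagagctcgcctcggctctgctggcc
The Kcnq1ot1 window held 3 copies of CCAAT, the Meg3 window 1 and the Airn window 0. Of 32851 promoter windows of the same length, 37.4% held the motif and 3.37% held 3 or more copies. CpG dinucleotides, the sites of DNA methylation, numbered 9 in the Kcnq1ot1 window, 13 in that of Meg3 and 3 in that of Airn, with a median of 7 over all windows. The windows of Rian and Mirg held 0 and 10 CpG. These matches describe the letters in the windows only.

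H19 and Meg3 carry microRNA hairpins in their exons, so that reads of these hairpins and of the host RNA come from the same bases. The mature sequences from RefSeq (GRCm38.p6) are shown with the seed, bases 2 to 8, in capitals. No microRNA of these hosts had a row in the table, which limits the counts to the host genes.
miR-675-5p (H19, chr7:142577112-142577133, minus strand): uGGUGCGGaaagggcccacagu
miR-675-3p (H19, chr7:142577078-142577099, minus strand): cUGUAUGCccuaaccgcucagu
miR-770-5p (Meg3, chr12:109563710-109563731, plus strand): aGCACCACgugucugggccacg
miR-770-3p (Meg3, chr12:109563744-109563765, plus strand): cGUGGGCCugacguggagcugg
The 4 sequences have 4 different seeds. A further microRNA in an exon of Meg3, miR-1906, is not shown.

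The comparison of the fractions asks how much of each RNA remained with the isolated mitochondria. Kcnq1ot1 had the largest difference of the 5 RNAs, and its mean was 13.6-fold higher in the rest fraction. Airn was 4.77-fold higher and Rian 2.29-fold higher in the rest fraction by their means, while the ranges of Meg3 and H19 overlapped between the fractions. Tested with limma's moderated test over 12150 genes, followed by Benjamini-Hochberg adjustment, 0 of the 5 RNAs had an adjusted p-value under 0.05, against 1.39% of all tested genes that were lower and 2.16% that were higher in mitochondria (3.55% in either direction). Before adjustment, 2 of the 5 (Kcnq1ot1 and Airn) had p-values under 0.05 and were lower, against 16.2% of all tested genes, and 0 were higher, against 14.1%. Both mitochondrial values lay below both rest values for 3 of the 5 RNAs, Kcnq1ot1, Airn and Rian, against 33.4% of all tested genes, and above them for 0, against 27.7%. A log2 fold change below -2 was found for 2 of the 5, against 5.79%. Of all 322 tested long noncoding RNAs (lncRNAs), the 5 included, 189 had both mitochondrial values below both rest values and 41 had both above. Before adjustment 117 of the 322 were lower and 19 higher (limma, p under 0.05), and 112 had a lower log2 fold change than Airn. Some of the 322 lncRNAs passed the filter only through their rest values, for example 1700109K24Rik (0 and 0 against 11 and 15 normalized counts). Such genes can only be listed as lower in mitochondria, so that the counts over lncRNAs partly follow from the filter. With this limit, these counts do not set the 5 RNAs apart from other lncRNAs.

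**Figure D1:**
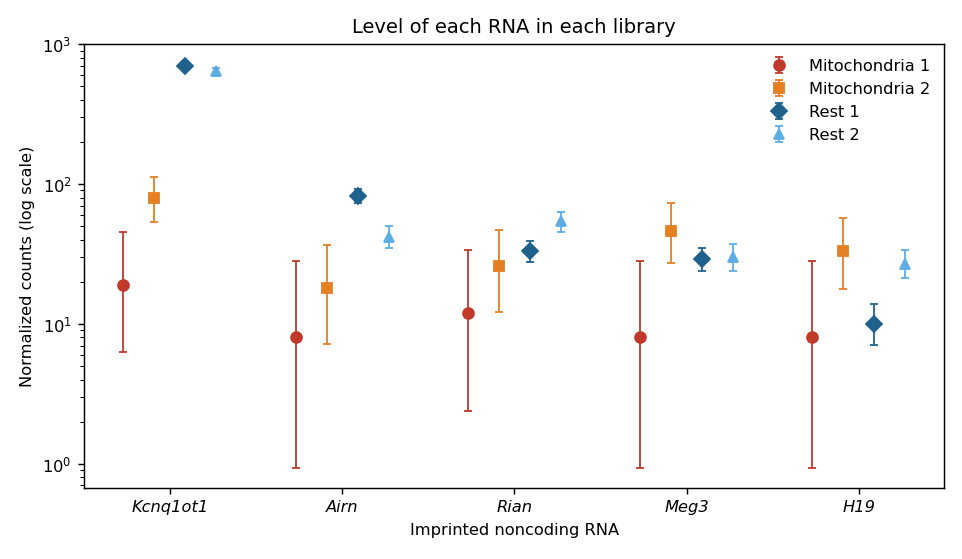
Normalized counts (vertical axis, log scale) of the 5 imprinted noncoding RNAs in each of the 4 libraries, with exact 95% Poisson intervals of the reads as bars. Kcnq1ot1 lies at 19 and 79 in mitochondria and at 692 and 644 in the rest fraction, while H19 and Meg3 have overlapping ranges and mitochondrial replicate 1 holds the lowest value of each RNA.

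Kcnq1ot1 (ENSMUSG00000101609) spans bases 143203458 to 143296549 of chromosome 7 (GRCm38, minus strand), and its annotated exon covers the whole span of 93.1 kb. The table gives 19 and 79 normalized counts for Kcnq1ot1 in mitochondria (replicate 1, then replicate 2, here and below) and 692 and 644 in the rest fraction. Both rest values were far above both mitochondrial values, and the mitochondrial values differed 4.16-fold from each other. The paper had already described Kcnq1ot1, from normalized mean counts of these data, as highly enriched in the rest fraction. The mitochondrial values rest on 5 and 31 reads, with intervals of 6.29 to 45.2 and 53.7 to 112 normalized counts. On the log2 scale, mitochondria minus rest, the difference was -4.06 ± 0.675 (standard error; limma, adjusted p = 0.0524), and 103 of the 12150 tested genes had a more negative value.

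The adjusted p-value of Kcnq1ot1 lay beside the threshold, and the choice of fit decided on which side. It was 0.0491 from limma with scaling by a trimmed mean of log ratios, 0.00939 with genes restricted to a mean above 50 and 0.0678 with a pseudocount of 0.1. Leaving out single libraries gave log2 fold changes from -5.06 (without mitochondrial replicate 2) to -3.06 (without mitochondrial replicate 1). By reads alone, the ratio of mitochondria to rest was 0.0824 (exact 95% interval 0.0576 to 0.114), a ratio between these 4 libraries rather than between conditions.

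All of the annotated exon of Kcnq1ot1 lies inside Kcnq1, which encodes a potassium channel and is transcribed from the opposite strand. Of its exonic bases, 1.20% lie in annotated exons of opposite genes. The use of strand in counting is not given in the sources used here, and without strand, reads from introns of Kcnq1 cannot be told apart from Kcnq1ot1. Kcnq1 was listed with 27 and 31 normalized counts in mitochondria and with 55 and 52 in the rest fraction (log2 difference -0.86; limma, adjusted p = 0.114). Both mitochondrial values of Kcnq1 were below both rest values, with a smaller difference than that of Kcnq1ot1. Within a library, the log2 ratio of Kcnq1ot1 to Kcnq1 was -0.49 and 1.32 in mitochondria and 3.63 and 3.61 in the rest fraction. The ratio, which does not depend on the scaling between libraries, was thus lower in both mitochondrial libraries. An exact permutation test of 2 libraries against 2 cannot give a p-value below 0.333, and gave 0.333 here (two-sided).

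Airn (ENSMUSG00000078247) lies on the plus strand of chromosome 17 from 12741311 to 12860136. Only 3.03% of its span of 119 kb is annotated as exon, so that most of this long RNA was not counted. Airn had 8 and 18 normalized counts in mitochondria, against 82 and 42 in the rest fraction. The fractions did not overlap, and the rest values differed from each other by more than counting error (ratio of replicate 2 to replicate 1 by reads 0.513, exact 95% interval 0.411 to 0.637). The mitochondrial values rest on 2 and 7 reads, the first of them below the level of 3 reads. The log2 difference was -2.19 ± 0.550 (standard error; limma, adjusted p = 0.0829), with values from -2.73 to -1.65 after omission of single libraries. By reads, the ratio of mitochondria to rest was 0.212 (exact 95% interval 0.0964 to 0.407).

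Of the exonic bases of Airn, 23.8% lie inside Igf2r or Mas1, protein-coding genes of the opposite strand, and 0% in annotated exons of opposite genes. Igf2r, which encodes the receptor that clears IGF2, had 941 and 615 normalized counts in mitochondria, against 1376 and 1397 in the rest fraction. Both mitochondrial values were lower (log2 difference -0.87; limma, adjusted p = 0.107). The log2 ratio of Airn to Igf2r within a library was -6.71 and -5.02 in mitochondria and -4.05 and -5.02 in the rest fraction. These ranges met at -5.02 and thus overlapped, whereas those of Kcnq1ot1 to Kcnq1 did not.

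The table listed 5 further genes within the span of Airn, and each of them had fewer than 3 reads in both mitochondrial libraries. The RNA Gm23833 was listed at 0 and 0 in mitochondria and with 18 and 7 normalized counts in the rest fraction. Gm49958, named after its values were seen, was the only one of the 5 to pass the filter, through its rest values. It was listed at 0 and 0 in mitochondria and with 17 and 10 in the rest fraction (limma, adjusted p = 0.0649). In 3 of the 5 genes both mitochondrial values were below both rest values, but 4 of the 5 were not tested, and the background of 33.4% covers tested genes only.

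Rian (ENSMUSG00000097451) and Meg3 (ENSMUSG00000021268) lie on the plus strand of chromosome 12, from 109603808 to 109661716 and from 109541001 to 109571726. Rian was listed with 12 and 26 normalized counts in mitochondria and with 33 and 54 in the rest fraction. The ranges did not overlap, but the gap between 26 and 33 was smaller than the difference between the libraries of either fraction. The log2 difference of Rian was -1.21 ± 0.501 (standard error; limma, adjusted p = 0.188). By reads, 13 in mitochondria and about 273 in the rest fraction, the ratio was 0.478 (exact 95% interval 0.251 to 0.830).

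Meg3 was listed with 8 and 46 normalized counts in mitochondria and with 29 and 30 in the rest fraction. The rest values lay between the mitochondrial ones. The log2 difference of Meg3 was -0.57 ± 0.834 (standard error; limma, adjusted p = 0.673). By reads, 20 in mitochondria and about 192 in the rest fraction, the ratio was 1.04 (exact 95% interval 0.624 to 1.66), and the mitochondrial libraries differed 5.93-fold by reads (exact 95% interval 1.42 to 52.7). Without mitochondrial replicate 1 the log2 fold change of Meg3 was 0.62, and without replicate 2 it was -1.76. A difference between the fractions was not detected for Meg3, whose mitochondrial libraries differed from each other by more than counting error.

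Rian and Meg3 come from the same region, and their log2 ratio within a library was 0.53 and -0.80 in mitochondria and 0.18 and 0.83 in the rest fraction. The ranges overlapped. The annotation places 92 small RNA genes between the start of Meg3 and the end of Mirg, of which 66 are microRNAs and 23 small nucleolar RNAs. Of these, 0 had a row in the table. Dlk1, Rtl1 and Dio3, the protein-coding genes of the region, are not analysed here.

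H19 (ENSMUSG00000000031), the cytoplasmic RNA of the group, spans bases 142575529 to 142578143 of chromosome 7 (minus strand). Mitochondria had 8 and 33 normalized counts of H19 and the rest fraction 10 and 27. In each fraction replicate 2 was the higher library, and the fractions overlapped over nearly their whole range. The log2 difference of H19 was -0.0047 ± 0.841 (standard error; limma, adjusted p = 0.997), and 2 libraries a fraction leave a wide error around it. By reads, 15 in mitochondria and about 112 in the rest fraction, the ratio was 1.34 (exact 95% interval 0.728 to 2.31). The rest libraries differed 2.69-fold from each other (exact 95% interval 1.80 to 4.09 by reads). Without mitochondrial replicate 1 the log2 fold change of H19 was 0.95, and without mitochondrial replicate 2 it was -0.96, so that its sign depended on a single library. Leaving out rest replicate 2 gave 0.67. Igf2, the growth factor gene next to H19, was listed with 8 and 5 normalized counts in mitochondria and 6 and 3 in the rest fraction and did not pass the filter.

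**Figure D2:**
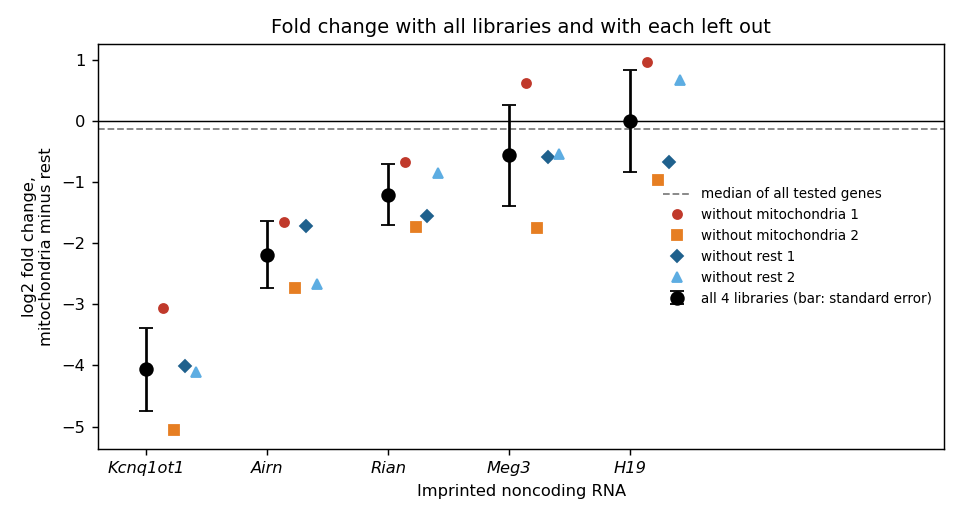
Log2 fold changes of the 5 RNAs (vertical axis, mitochondria minus rest, log2 of normalized count plus 1) from all 4 libraries with standard errors (black), and with each library left out (coloured). Kcnq1ot1 stays between -5.06 and -3.06, while Meg3 and H19 are positive without mitochondrial replicate 1, and H19 also without rest replicate 2. The dashed line is the median of all tested genes, -0.14.

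The nuclear RNAs were also compared with H19 inside each library, which removes the scaling between libraries. The log2 ratio of Kcnq1ot1 to H19 was 1.15 and 1.23 in mitochondria and 5.98 and 4.53 in the rest fraction, so that the difference was -4.06 and exceeded the spread between replicates. For Airn the ratio was 0.00 and -0.84 in mitochondria and 2.92 and 0.62 in the rest fraction, a difference of -2.19. For Rian the ratio was 0.53 and -0.33 in mitochondria and 1.63 and 0.97 in the rest fraction. These ratios did not overlap between the fractions, but for both Airn and Rian the libraries of each fraction lay farther apart than the nearest libraries of the 2 fractions. The ratio of Meg3 to H19, 0.00 and 0.47 in mitochondria and 1.45 and 0.15 in the rest fraction, did overlap. The exact permutation test (two-sided) gave p = 0.333 for Kcnq1ot1, Airn and Rian and 0.667 for Meg3, where 0.333 is the smallest value that 2 libraries against 2 allow, before any adjustment over the 4 pairs. In mitochondrial replicate 1 the ratios rest on 2 reads of H19.

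**Figure D3:**
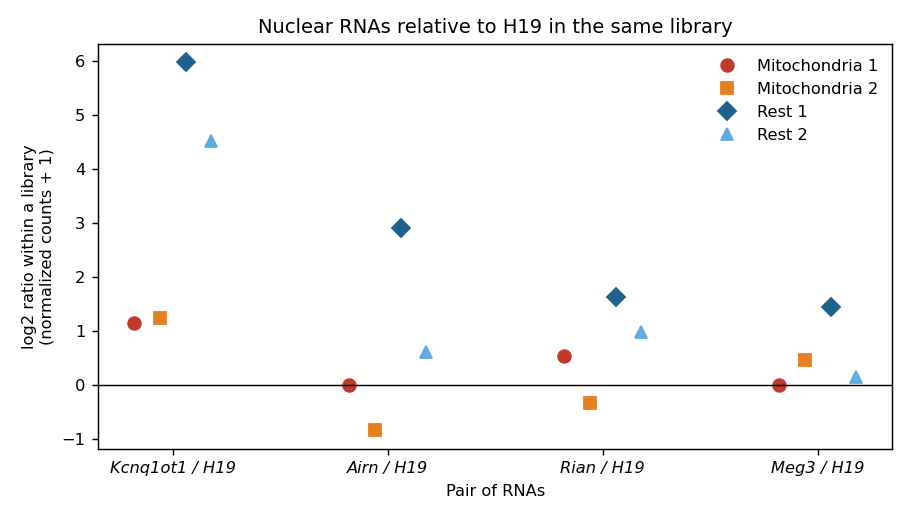
Log2 ratio of each nuclear RNA to H19 within each library (vertical axis, after adding 1 to each normalized count). For Kcnq1ot1 the mitochondrial libraries lie at 1.15 and 1.23 and the rest libraries at 5.98 and 4.53, and for Meg3 the fractions overlap.

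Kcnq1ot1 and Airn were also set against Malat1, an abundant nuclear RNA. The log2 ratio of Kcnq1ot1 to Malat1 was -9.37 and -6.71 in mitochondria and -5.86 and -6.08 in the rest fraction, without overlap. The ratio of Airn to Malat1 was -10.52 and -8.78 in mitochondria and -8.92 and -9.99 in the rest fraction, with overlapping ranges. Malat1 itself had a log2 difference of -1.99 (limma, adjusted p = 0.0522). The differences were -2.07 for Kcnq1ot1 and -0.20 for Airn, and whether they differ from each other was not tested.

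Levels of the RNAs were compared with each other per kb of annotated exon. In the rest fraction Airn had 17.2 ± 7.86 normalized counts per kb, H19 7.52 ± 4.89, Kcnq1ot1 7.18 ± 0.365, Rian 2.39 ± 0.814 and Meg3 1.63 ± 0.0391 (SD, n = 2 each). In this order, Airn and H19, H19 and Kcnq1ot1, and Rian and Meg3 did not differ beyond their SDs, and Kcnq1ot1 was above Rian. In mitochondria the order per kb was H19 with 8.33 ± 7.19, Airn with 3.61 ± 1.97, Meg3 with 1.49 ± 1.49, Rian with 1.04 ± 0.543 and Kcnq1ot1 with 0.526 ± 0.456 normalized counts per kb (SD, n = 2 each). No neighbours in this order differed beyond their SDs. Kcnq1ot1 was thus listed close to H19 per kb in the rest fraction and last in mitochondria.

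In mitochondrial replicate 2 each of the 5 RNAs had a higher value than in replicate 1, from 2.17-fold for Rian to 5.75-fold for Meg3. Of all 322 tested lncRNAs, 60.2% were higher in mitochondrial replicate 2 and 52.5% were at least 2-fold higher, against 46.6% and 18.7% of all 12150 tested genes. The share of mitochondrial rRNA was 94.5% in replicate 1 and 82.5% in replicate 2, and the part of these differences in the values of the 5 RNAs was not tested. As a sum, the 5 RNAs reached 55 and 202 normalized counts in mitochondria and 846 and 797 in the rest fraction. Kcnq1ot1 made up 34.5% and 39.1% of this sum in mitochondria, and 81.8% and 80.8% in the rest fraction.

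The protein-coding genes at the same loci were taken from a list of 22, of which 8 passed the filter. Of these 8, 0 passed the test in either direction, against 3.55% of all tested genes, so that the count does not set these genes apart. Their median log2 fold change was -0.59 against -0.14 for all tested genes and -1.21 for the 5 RNAs. Nap1l4, a nucleosome assembly protein gene, was listed with 341 and 337 normalized counts in mitochondria and 224 and 214 in the rest fraction (log2 difference 0.63; limma, adjusted p = 0.0881). Both of its mitochondrial values were higher, the opposite of Kcnq1ot1 from the same region. Cdkn1c, which encodes a cell cycle inhibitor and is a target of Kcnq1ot1, was listed with 8 and 51 against 35 and 42 normalized counts, with overlapping ranges. The others, Cd81, Osbpl5, Tssc4 and Slc22a3, had log2 fold changes from -1.05 for Slc22a3 to 1.34 for Tssc4. Tssc4, with 12 and 23 against 6 and 6 normalized counts, passed the filter only through its mitochondrial values.

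Of 34 imprinted protein-coding genes elsewhere in the genome, 21 were tested and 0 passed the test, against 3.55% of all tested genes, with a median log2 fold change of -0.27. The most negative values were -1.30 for Ppp1r9a, -1.30 for Mcts2 and -0.81 for Blcap, and the most positive were 1.12 for Commd1, 1.11 for Snrpn and 0.95 for Ndn. Mcts2 was listed with 4 and 3 normalized counts in mitochondria, both below the level of 3 reads. It passed the filter only through its rest values (10 and 10). Of other noncoding RNAs of imprinted loci, Peg13 was listed with 62 and 105 normalized counts in mitochondria and 146 and 139 in the rest fraction, without overlap (log2 difference -0.81; limma, adjusted p = 0.165). Snhg14, the host of imprinted small nucleolar RNAs, was listed with 8 and 66 against 25 and 38, with overlapping ranges.

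Other lncRNAs were grouped by their known place in the cell. Of 11 tested nuclear-retained lncRNAs other than the 5 RNAs, Snhg14 among them, 2 passed the test as lower in mitochondria and 0 as higher, against 1.39% and 2.16% of all tested genes, with a median log2 fold change of -1.99. Lncpint and Ftx were the ones that were lower, with log2 fold changes of -4.62 and -4.64 (limma, adjusted p = 0.0427 and 0.0469). Ftx, named after its values were seen, was listed at 0 and 0 in mitochondria and with 26 and 22 normalized counts in the rest fraction. It passed the filter only through its rest values, and its fold change depends on the pseudocount, so that its call is no support for the list. Lncpint, with 4 and 15 against 234 and 205 normalized counts, reached the filter through its rest values. Its value in mitochondrial replicate 1 lies below the level of 3 reads. Moreover, the paper named Malat1, Neat1 and Lncpint as enriched in the rest fraction of these same data, so that the count of calls is no independent support. Malat1 (-1.99), Neat1 (-2.23) and Mir99ahg (-1.72) did not pass, and Pvt1, also named after its values were seen, had the opposite sign (2.13; limma, adjusted p = 0.0637). Pvt1, with 23 and 23 against 5 and 4 normalized counts, reached the filter only through its mitochondrial values, so that its sign is no support either. Of 5 tested cytoplasmic lncRNAs 0 passed the test, with a median of -0.55 and the highest values for 2900097C17Rik (Norad, 0.70) and Oip5os1 (Cyrano, 0.46). The others, Dancr (-1.94), Snhg5 (-0.62) and Gas5 (-0.55), had negative values. Dancr, with 0 and 8 against 11 and 10 normalized counts, passed the filter only through its rest values. The median of all 322 tested lncRNAs was -1.46, below that of the 5 imprinted RNAs, and 81.4% had a negative log2 fold change against 56.2% of all tested genes. Some of these lncRNAs passed the filter only through their rest values, which makes their fold changes negative. The median and the share of the lncRNAs thus partly follow from the filter.

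**Figure D4:**
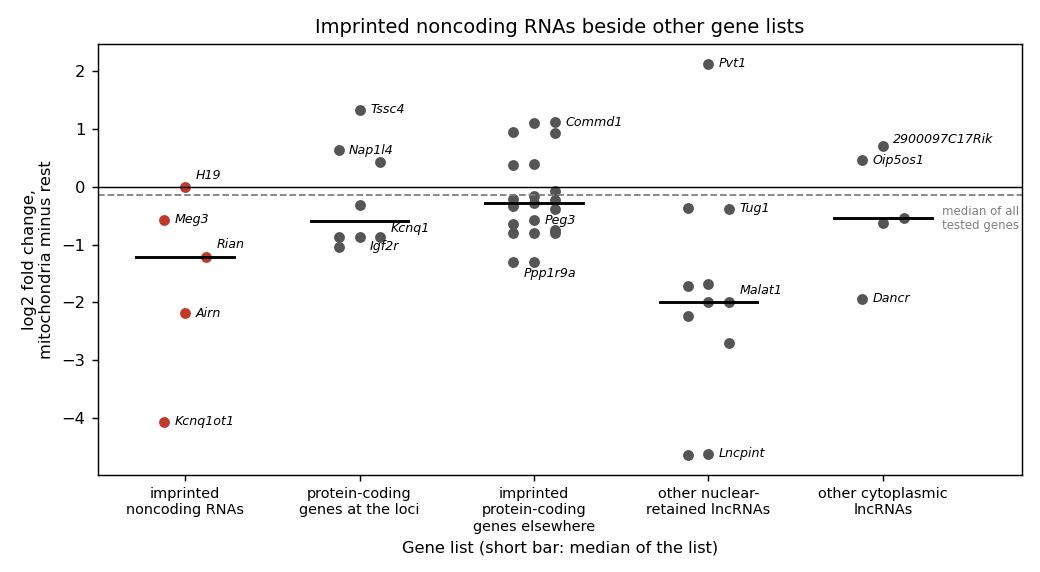
Log2 fold changes (vertical axis, mitochondria minus rest) of the tested genes of each list, with the median of the list as a short bar and the median of all tested genes, -0.14, as a dashed line. The 5 imprinted RNAs span -4.06 to -0.0047, and the nuclear-retained lncRNAs have a median of -1.99.

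Exonic length is given for the 5 RNAs because longer exons collect more reads. Kcnq1ot1, with 93.1 kb of exon, ranked 2 by exonic length among the tested lncRNAs. AC160336.1, the longest and chosen for mention with its values known, had a positive log2 difference of 1.44 (limma, adjusted p = 0.190). The 20 tested genes above 30 kb of exon, Kcnq1ot1 included, had a median log2 fold change of -1.04. The median of all tested genes was -0.14. Of these 20, AC160336.1, Gm4117 (0.95) and D1Ertd622e (0.85) had positive values. By exonic length, the median was -0.62 for the shortest 107 tested lncRNAs, -1.71 for the middle 108 and -1.59 for the longest 107. The tested lncRNAs include genes that passed the filter only through their rest values. The part of length in the value of Kcnq1ot1 was not tested. Meg3 and Rian had similar exonic lengths of 18.1 and 18.2 kb, and Airn and H19 had 3.60 and 2.46 kb. The median exonic length of the tested lncRNAs was 3.16 kb.

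The genes whose profiles over the 4 libraries were most like those of the 5 RNAs were found by the Euclidean distance between log2 values, each centred on its own mean. For H19 the nearest was Lrrcc1 (distance 0.08), with 23 and 87 normalized counts in mitochondria and 29 and 77 in the rest fraction, followed by 2810402E24Rik and Apbb1ip. For Airn the nearest 3 were lncRNAs, 4632404M16Rik, Gm17491 and 5031425E22Rik (distances 0.19 to 0.32). Of these, 4632404M16Rik, with 4 and 8 against 42 and 23 normalized counts, passed the filter only through its rest values. For Kcnq1ot1 the nearest 3 were Gm38235, Cnnm3 and Gm13479 (0.11 to 0.19), each listed with 0 and 3 normalized counts in mitochondria. Both values lie below the level of 3 reads, and these genes passed the filter only through their rest values. Their closeness to Kcnq1ot1 thus depends on the pseudocount. For Meg3 the nearest were Popdc3, Slx4 and Umps (0.10 to 0.11), and for Rian Slc28a2b, Prg4 and Tcf21 (0.08 to 0.17). Tcf21, with 4 and 8 against 12 and 20 normalized counts, also passed the filter only through its rest values. Among the 5 RNAs themselves the smallest distance was that of Meg3 and H19 (1.13) and the largest that of Kcnq1ot1 and H19 (4.19). These distances rest on 4 libraries and are a description.

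The size of the fold changes depended on the scaling, while their sign was negative for the 5 RNAs under each scaling tried. Under scaling to the library total, the median of all tested genes moved to -3.93, and relative to this median the log2 fold changes were -3.94 for Kcnq1ot1, -1.85 for Airn, -0.96 for Rian, -0.25 for Meg3 and 0.36 for H19. With the total without the mitochondrial chromosome the median was -0.98, and the relative values were -3.94 for Kcnq1ot1, -2.04 for Airn, -1.06 for Rian, -0.42 for Meg3 and 0.16 for H19. The order of these RNAs was the same under both scalings. Apart from the pseudocount, a scaling shifts all genes of a library equally on the log2 scale. This order was therefore nearly fixed in advance and is no check.

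Markers of other cells moved with the fractions to different degrees. The 5 fibroblast markers summed to 3440 to 8188 normalized counts in mitochondria and 2175 to 3063 in the rest fraction, and the 5 endothelial markers to 1293 to 1472 and 2294 to 2600. The erythroid markers summed to 50 to 341 and 440 to 824, with Alas2 at 0 in at least 1 library, and the macrophage markers to 439 to 991 and 291 to 426. Smooth muscle and pericyte markers, without Tagln, which had no row, summed to 1372 to 1594 in mitochondria and 2488 to 3038 in the rest fraction. Only 2 of the 5 adipocyte markers, Fabp4 and Cfd, had a row, and Cfd was at 0 in at least 1 library. Their sums, 653 to 709 in mitochondria and 663 to 722 in the rest fraction, therefore say little about adipocytes. Of the 4 tested smooth muscle and pericyte markers, 1 passed the test as lower in mitochondria (Myh11, 43 and 61 against 380 and 800 normalized counts; limma, adjusted p = 0.0427), and 0 of the tested markers of the other lists passed. Of all tested genes 1.39% were called lower and 2.16% higher, so that 0 calls in lists this short do not set them apart. The part of these cells in the values of H19, Meg3 and the other RNAs was not tested.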

How the data were processed

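Mitochondrial and rest fractions of mouse hearts were sequenced, with 2 libraries each. Per the paper, the authors used Trimmomatic for trimming, STAR for alignment to mm10 (GRCm38), featureCounts for reads on exons and DESeq2 for normalization, and dropped reads with several alignments or several genes. The deposited signal is the resulting count over the size factor of its library, rounded by the authors. Per the submitters' processing notes, the authors used Trimmomatic 0.39, STAR 2.7.10a, featureCounts 2.0.2 and DESeq2 1.30.1, while the paper gives other versions for some. The use of strand in counting and a filter on low genes are not given in the sources used here.

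The RNAs and gene lists were chosen with earlier results of these data known. The worth of a single read was found from the spacing of the deposited values and put the reads on genes at about 47400000 and 32100000 (mitochondria) and 26300000 and 23500000 (rest). Rounding makes reads approximate in the rest libraries, and whole counts could not be restored for a count test.

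Linear models of limma 3.58.1 (R 4.3.3) with a mean-variance trend were fitted to log2 of the normalized count plus 1, for 12150 genes that reached 10 normalized counts in 2 or more libraries. Fold changes are on this scale, which understates changes of low genes. Benjamini-Hochberg adjustment covered all tested genes. Steps were tested on simulated data. Ratios of reads have exact binomial (Clopper-Pearson) intervals, computed with scipy 1.17.1. Exons came from GENCODE M21 (GRCm38), which held an exonic length for 12148 tested genes, and start sites and microRNAs from RefSeq. Named genes were the RNAs, the tested protein-coding genes at their loci, the 3 most positive and most negative imprinted genes elsewhere, examples from 2 lncRNA lists and the 3 most similar profiles for each RNA.

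Alternatives were other scalings, filters and pseudocounts, the replicate number as a block, and each library left out in turn.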

Additional observations from a re-analysis of the deposited data

How the results depend on the processing

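The 5 RNAs kept a negative log2 fold change under the alternatives tried, except Meg3 and H19. Without mitochondrial replicate 1, Meg3 had 0.62 and H19 0.95, without rest replicate 2 H19 had 0.67, and with a pseudocount of 10 H19 had 0.032. With each library left out in turn, log2 fold changes ranged from -5.06 to -3.06 for Kcnq1ot1, -2.73 to -1.65 for Airn, -1.73 to -0.68 for Rian, -1.76 to 0.62 for Meg3 and -0.96 to 0.95 for H19. The fraction left with 1 library was then assumed to vary like the other, and 0 genes of the whole table passed an adjusted p-value of 0.05 in these fits, while 468 to 3324 lower and 590 to 2333 higher genes had unadjusted p-values under 0.05 (limma). The adjusted p-value of Kcnq1ot1 fell under 0.05 with scaling by a trimmed mean of log ratios (-4.07), genes of a mean above 50 (-4.06) and a pseudocount of 10 (-3.74). Scaled to the library total, all 5 RNAs passed as lower (Kcnq1ot1 -7.87, Airn -5.78, Rian -4.89, Meg3 -4.18, H19 -3.57), where 12022 genes were lower and 2 higher. With the total without the mitochondrial chromosome Kcnq1ot1 (-4.91), Airn (-3.01) and Rian (-2.04) passed, with 3819 genes lower and 129 higher. These scalings moved the median gene to -3.93 and -0.98.

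Counts over all genes moved from 262 higher and 169 lower to 790 and 670 with a mean above 50, 536 and 580 with a pseudocount of 10, and 0 and 0 with a pseudocount of 0.1 (limma; before adjustment, 1694 and 1754 genes had p-values under 0.05). Without the filter 630 genes were lower. The cause was not tested. Only Kcnq1ot1 had a mean above 50, and the other 4 RNAs were not tested there.

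The replicate numbers are shared by the fractions, but the sources do not tie them to an animal or day. The differences between replicates 2 and 1 correlated with r = 0.130 across genes. With the replicate block, limma called 470 genes higher and 309 lower, and Kcnq1ot1 had an adjusted p-value of 0.0270 at the same log2 fold change (-4.06). The block changed no other call among the 5 RNAs.

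With pseudocounts of 0.1 and 10 the ratios to H19 kept their sign. With a library left out, the difference ranged from -4.78 to -3.33 for Kcnq1ot1, -3.34 to -1.04 for Airn, -1.63 to -0.77 for Rian and -1.21 to 0.087 for Meg3, where the last value was without rest replicate 1. Depth limits the mitochondrial values most, since the 5 RNAs rest on 9 to 36 reads there.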
